A study of Mus musculus with 24 samples.

Results

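Keratins of simple epithelia, of mucosal linings and of the outermost fetal layer of skin were examined in skin RNA from Dsg1-deficient mouse embryos. The set was given by name as 9 genes, Krt4, Krt7, Krt8, Krt13, Krt18, Krt19, Krt20, Krt23 and Krt80, out of 54087 gene symbols in the count table, and all 9 passed the filter on low counts. RNA came from dorsal skin of E18.5 embryos, shortly before birth, of 3 genotypes, with 8 libraries of each. WT carried intact copies of the Dsg1 gene cluster, HET (Dsg1+/-) had a deletion of the tandem Dsg1c, Dsg1a and Dsg1b genes on a single chromosome, and KO (Dsg1-/-) had it on both. The deletion was made by CRISPR/Cas9 and is present in every cell from conception, the line descends from a single edited founder that was bred on, and the mice were kept on a C57BL/6 background.

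Keratins are filament proteins that assemble as pairs of an acidic type I chain and a basic type II chain. The pair of Krt8 (type II) and Krt18 (type I) is the first to appear in the embryo and marks simple epithelia, often with Krt7 and Krt19, while skin keratinocytes switch to Krt5 with Krt14 and then to Krt1 with Krt10. In fetal skin, simple keratins are known from the periderm, the layer of flat cells that covers the forming epidermis and is shed before birth, and from Merkel cells, the touch receptors of the epidermis, which also hold Krt20.

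Libraries were combined by the number in their titles, which gave 15 columns, 5 per genotype, named replicate 1 to 5 in each, with 15.3 M to 33.7 M counts. Levels are CPM, counts per 1 M counts of a library size scaled by TMM (trimmed mean of M-values) factors, and p-values measure the spread between these columns, which the labels do not tie to separate embryos. The summed Dsg1 genes were at 806 ± 112 CPM in WT, 422 ± 51.5 in HET and 0.548 ± 0.343 in KO (SD, n = 5 each, exact permutation test, two-sided p = 0.00794 for HET and for KO against WT). Epidermal keratinocyte markers were high in all columns, with a summed level of the basal list (Krt5, Krt14, Trp63, Col17a1, Itga6 and Itgb4) between 4950 and 6770 CPM. A single column, KO replicate 4, stood apart for these keratins, as described below, and the fold changes of the keratins KO vs WT are given with and without it. WT replicate 2 joins a pair of libraries of unlike sex. Of these, 1 had 338 CPM in the summed genes of the Y chromosome and 0.275 CPM of Xist. The other had 0.157 CPM and 574 CPM.

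The promoters of the keratins that were highest in KO replicate 4 are shown first, since these genes stood apart in the same column. RefSeq promoter windows on GRCm38.p6, from 250 bases before to 50 bases after the annotated start, were at hand for 6 of the 9 genes, with a pair of windows for Krt13. Krt19, also highest in KO replicate 4, had no window and is not shown, and Krt4 and Krt80 had none. They were searched on both strands for the TATA box TATAAA, the CCAAT box, the GC box GGGCGG, the AP-1 site TGANTCA and the grainyhead site AACCNGTT, which are present in 13.6%, 37.4%, 35.7%, 7.81% and 2.09% of 32851 promoters of that length. Capitals mark these motifs, written 5′ to 3′ on the strand of the gene.
Krt8, chr15:102004293-102004592, minus strand: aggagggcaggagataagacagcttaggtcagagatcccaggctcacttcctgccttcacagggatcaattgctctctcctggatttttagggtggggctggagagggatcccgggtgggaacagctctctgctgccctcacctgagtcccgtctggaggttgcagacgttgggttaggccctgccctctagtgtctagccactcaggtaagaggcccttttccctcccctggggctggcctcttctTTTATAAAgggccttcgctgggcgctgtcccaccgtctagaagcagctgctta
Krt18, chr15:102027966-102028265, plus strand: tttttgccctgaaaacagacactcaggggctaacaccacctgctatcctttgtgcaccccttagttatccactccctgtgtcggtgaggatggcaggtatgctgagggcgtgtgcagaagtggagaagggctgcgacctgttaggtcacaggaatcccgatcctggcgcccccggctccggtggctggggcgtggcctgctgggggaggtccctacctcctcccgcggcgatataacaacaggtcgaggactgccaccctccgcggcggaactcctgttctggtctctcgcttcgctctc
Krt7, chr15:101412153-101412452, plus strand: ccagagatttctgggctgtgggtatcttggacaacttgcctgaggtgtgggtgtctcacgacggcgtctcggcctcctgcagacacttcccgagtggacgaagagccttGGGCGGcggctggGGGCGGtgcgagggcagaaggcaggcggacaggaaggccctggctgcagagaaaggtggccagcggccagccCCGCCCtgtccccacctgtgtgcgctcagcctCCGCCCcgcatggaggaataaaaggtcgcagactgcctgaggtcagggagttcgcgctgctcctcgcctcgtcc
Krt13, chr11:100120528-100120827, minus strand: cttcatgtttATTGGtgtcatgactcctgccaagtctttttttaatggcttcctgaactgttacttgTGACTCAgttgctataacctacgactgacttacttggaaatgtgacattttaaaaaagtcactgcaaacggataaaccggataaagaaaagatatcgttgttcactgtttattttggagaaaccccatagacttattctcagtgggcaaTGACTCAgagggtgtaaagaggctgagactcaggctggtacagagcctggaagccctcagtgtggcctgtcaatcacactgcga
Krt13, chr11:100121517-100121816, minus strand: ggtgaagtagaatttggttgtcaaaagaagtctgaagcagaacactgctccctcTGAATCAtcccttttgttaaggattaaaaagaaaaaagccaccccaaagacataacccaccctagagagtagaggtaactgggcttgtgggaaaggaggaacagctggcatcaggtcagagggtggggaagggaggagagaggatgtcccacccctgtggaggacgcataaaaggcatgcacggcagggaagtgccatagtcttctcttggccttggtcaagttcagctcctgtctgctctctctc

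The windows of these genes held different motifs. Krt7 had 4 GC boxes, beginning 141, 128, 56 and 24 bases before the start, while Krt8 had overlapping TATA letters of both strands that begin 3 and 1 bases before it. The first Krt13 window had TGACTCA at 183 and at 34 bases before the start and a CCAAT box on the reverse strand at 240, and the second had TGAATCA at 196. For the Krt18 window none of the 5 motifs was found in these letters. Of the keratins that were not highest in KO replicate 4, Krt20 had TATAAA beginning 29 bases before the start, and the Krt23 window held none of the 5.

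By level, these keratins were minor transcripts of fetal skin with 2 exceptions. Per kb of annotated exon, WT columns averaged 135 ± 31.2 CPM of Krt23 (SD, n = 5) and ranged from 15.1 to 28.1 CPM for Krt80, and the ranges of these genes, 110 to 183 for Krt23, overlapped neither each other nor those of the rest. Below them came Krt8 (2.11 CPM per kb), Krt19 (1.77), Krt4 (1.31), Krt7 (1.17), Krt18 (1.09) and Krt13 (1.05), whose neighbours in this order overlapped in range. Krt20 was the lowest at 0.482 ± 0.181 CPM per kb, and its highest WT column (0.689) lay under the lowest of Krt13 (0.859) but above the lowest of Krt4 (0.648). For scale, the differentiation keratin Krt10 was at 15400 CPM per kb in WT and the basal keratin Krt14 at 1360. In KO replicate 4 alone, Krt18 (65.1 CPM per kb), Krt19 (64.7) and Krt8 (54.0) lay between Krt80 (28.5) and Krt23 (84.5) of the same column. Lengths are the joined exons of GENCODE vM21, which are long for Krt7 (7049 bases) and Krt80 (6393), so their levels per kb are the least certain.

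**Figure D1:**
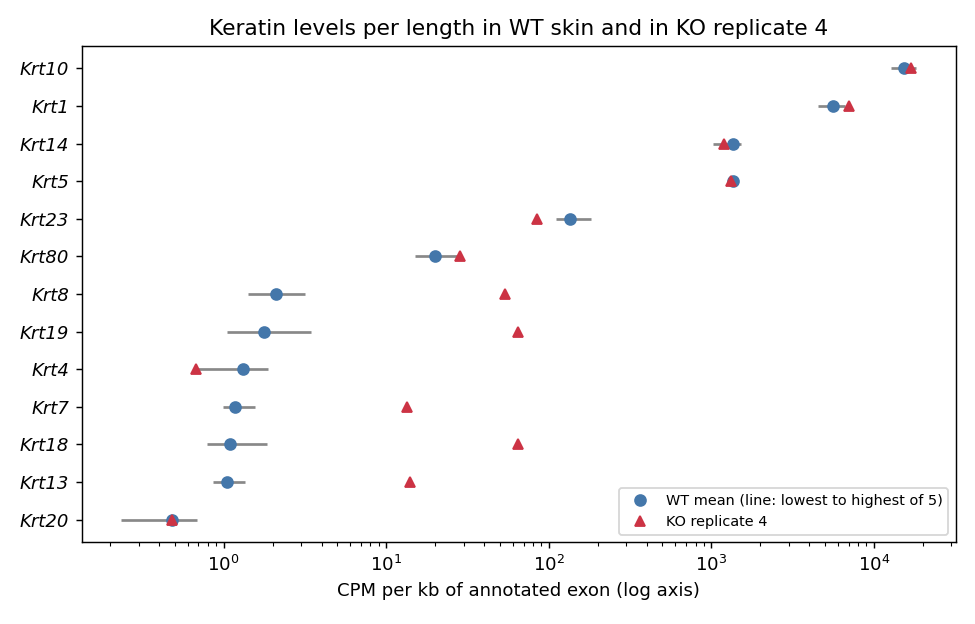
Level of each keratin in CPM per kb of annotated exon (log axis) in WT, as the mean of 5 columns with a line from the lowest to the highest, and in KO replicate 4 as a triangle, beside the main epidermal keratins. The WT means of Krt8, Krt18 and Krt19 lie between 1.09 and 2.11 CPM per kb and their triangles between 54.0 and 65.1, while the triangles of Krt5, Krt14, Krt1 and Krt10 lie within or near the WT lines.

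KO was compared with WT and HET to ask how loss of Dsg1 affects these keratins. Differences were tested by edgeR's quasi-likelihood method, with p-values adjusted by Benjamini-Hochberg over every tested gene. A gene was called where the adjusted p was at most 0.1 and the log2 fold change at least 1 in size. Of the 9 keratins 0 were called KO vs WT, where 0.322% of 17094 tested genes were, and 4 had an unadjusted p below 0.05, as did 19.3% of all genes. By limma-voom 0 of 9 were called (0.62% of genes) with 1 at an unadjusted p below 0.05 (19.6% of genes). DESeq2 called 0 (1.1% of genes) with 2 below 0.05 (20.5% of genes), but gave no adjusted p for Krt7, Krt8, Krt18 and Krt19. With the limit on the adjusted p alone 0 of 9 passed in edgeR, against 1.15% of genes. KO vs HET gave 0 of 9 (0.181% of genes) with 5 at an unadjusted p below 0.05 (16.0% of genes), and HET vs WT gave 0 of 9 (0% of genes) with 0, also by DESeq2 and limma-voom. Nor did the columns of any pair of genotypes separate without overlap for any of the 9, against 3.37% of genes for KO and WT, 0.374% for HET and WT and 2.25% for KO and HET. Of the log2 fold changes KO vs WT, 7 of 9 were positive with a median of 1.54, beside a median of -0.01 over all genes tested. By limma-voom on the same columns the median was 0.17, with 1.25 for Krt18 and 0.49 for Krt19. Without KO replicate 4 the median of the 9 was -0.28 and again 0 were called (0.15% of genes KO vs WT and 0.0636% KO vs HET). Single columns decided these counts. Without KO replicate 5, 1 of 9 was called KO vs WT (Krt18, adjusted p = 0.0743, with 1.39% of genes) and 2 of 9 KO vs HET (Krt18, adjusted p = 0.0882, and Krt13, adjusted p = 0.0986, with 0.654% of genes), and with the libraries of WT replicate 2 kept apart Krt18 was called KO vs WT (adjusted p = 0.0855, with 0.829% of genes).

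**Figure D2:**
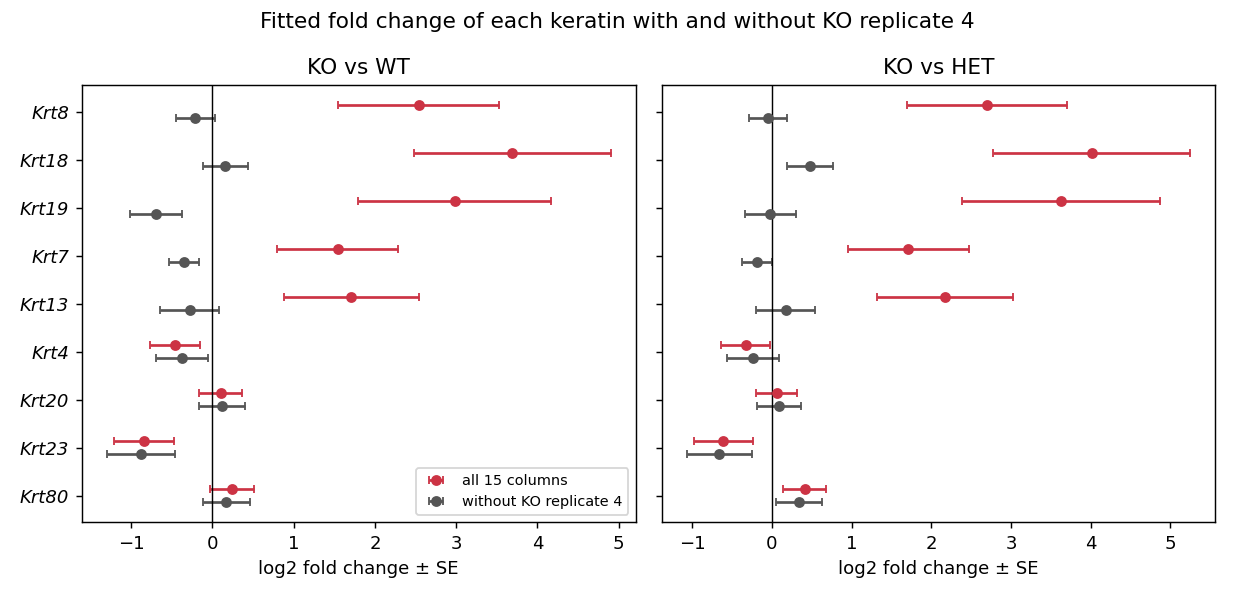
Fitted log2 fold change ± SE of each keratin KO vs WT (left) and KO vs HET (right), from all 15 columns (red) and without KO replicate 4 (grey). The 5 upper genes lie between 1.54 and 4.01 with all columns and between -0.69 and 0.48 without that column, while Krt4, Krt20, Krt23 and Krt80 change little.

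Among the simple epithelial keratins, Krt8, the type II chain of the pair, was at 4.95, 3.16, 3.60, 2.77 and 6.19 CPM in WT replicates 1 to 5. It was at 3.06, 4.84, 3.86, 3.51 and 2.97 CPM in HET and at 2.61, 4.06, 4.38, 106 and 3.09 CPM in KO. KO replicate 4, with 2057 counts, was 17.1 times the highest other column, and the other 4 KO columns lay inside or just under the range of WT. Fitted over all columns, KO vs WT was 2.54 on the log2 scale (SE 0.99, adjusted p = 0.197), and without KO replicate 4 it was -0.21 (SE 0.24, adjusted p = 0.712). KO vs HET went from 2.70 (SE 1.00, adjusted p = 0.231) to -0.05 (adjusted p = 0.945).

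Krt18, the type I partner of Krt8, had the largest fitted change of the 9. WT columns were at 1.46, 1.13, 1.39, 1.16 and 2.67 CPM and HET columns at 1.82, 1.00, 1.25, 1.30 and 0.718 CPM. In KO it was at 1.77, 1.95, 1.92, 93.5 and 1.19 CPM. KO replicate 4 held 90.9% of all KO counts of the gene and was 35.0 times the next column, and the other KO columns overlapped WT. The log2 fold change KO vs WT was 3.69 (SE 1.21, adjusted p = 0.147) with it and 0.16 (SE 0.28, adjusted p = 0.837) without it, and KO vs HET was 4.01 (adjusted p = 0.181) and 0.48 (SE 0.29, adjusted p = 0.486). Krt8-ps, a processed copy of Krt8, is listed apart in the table, and how reads shared with such copies were assigned is not known.

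Krt19, a short type I keratin that pairs with Krt7 or Krt8 in ducts and simple linings, was at 2.86, 1.94, 2.94, 2.26 and 6.40 CPM in WT. The HET columns were at 2.60, 2.49, 2.02, 1.63 and 1.34 CPM, and the KO columns at 1.98, 1.40, 2.34, 120 and 2.33 CPM. KO replicate 4 held 2336 counts, 91.8% of all in KO, while the other KO columns and all HET columns sat in the lower part of the WT range or under it. The log2 fold change KO vs WT turned from 2.98 (SE 1.19, adjusted p = 0.205) to -0.69 (SE 0.32, adjusted p = 0.348) when that column was left out, and KO vs HET from 3.63 (adjusted p = 0.202) to -0.02 (adjusted p = 0.981).

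Krt7, a type II keratin of ducts and simple linings, was the most counted of this group in WT, at 8.01, 8.06, 6.99, 7.24 and 11 CPM. It was at 6.67, 9.30, 6.73, 8.52 and 5.55 CPM in HET and at 4.48, 6.64, 8.09, 95.1 and 6.71 CPM in KO. KO replicate 4 was 8.62 times the highest other column, which was WT replicate 5, and 3 KO columns were below all WT columns. The log2 fold change KO vs WT was 1.54 (SE 0.75, adjusted p = 0.279), and -0.35 (SE 0.19, adjusted p = 0.423) without that column. KO vs HET was 1.71 (adjusted p = 0.294) and -0.19 (adjusted p = 0.686).

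Of the pair known from the lining of mouth and oesophagus, Krt13 (type I) behaved like the simple keratins and Krt4 (type II) did not. Krt13 was at 1.60, 1.56, 2.09, 1.86 and 2.47 CPM in WT, at 1.37, 1.79, 1.32, 1.30 and 1.15 CPM in HET and at 1.14, 1.92, 2.85, 25.6 and 0.333 CPM in KO. KO replicate 4 was 8.98 times the next column and KO replicate 5, with 7 counts, was the lowest of all. Its log2 fold change KO vs WT was 1.71 (SE 0.83, adjusted p = 0.273), and -0.28 (SE 0.36, adjusted p = 0.755) without KO replicate 4, and KO vs HET was 2.17 (adjusted p = 0.247) and 0.17 (adjusted p = 0.870). Krt4 was at 3.98, 3.39, 2.72, 1.38 and 2.47 CPM in WT, at 3.32, 1.26, 2.69, 1.76 and 3.64 CPM in HET and at 2.58, 1.44, 2.68, 1.44 and 1.90 CPM in KO, so the genotypes overlapped widely and KO replicate 4 was among the low columns. On the log2 scale KO vs WT was -0.46 (SE 0.31, adjusted p = 0.413), and -0.37 (adjusted p = 0.638) without that column.

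Krt20, a type I keratin of gut lining and Merkel cells, was close to the limit of what these libraries count. WT columns held 0.970, 0.724, 1.33, 1.16 and 0.453 CPM, and the 15 columns from 9 to 42 counts each. HET columns held 0.879, 1.00, 0.773, 1.30 and 0.909 CPM and KO columns 0.872, 1.36, 0.809, 0.925 and 1.05 CPM. KO replicate 4 was in the middle of its group, and the genotypes overlapped. On the log2 scale KO vs WT was 0.10 (SE 0.26, adjusted p = 0.854), and 0.12 (adjusted p = 0.877) without KO replicate 4.

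Krt23, a type I keratin, was the highest of the 9 and the one with the most negative fitted change. It was at 189, 171, 176, 236 and 286 CPM in WT and at 137, 211, 148, 249 and 159 CPM in HET. The KO columns were at 52.0, 228, 44.0, 132 and 135 CPM. Of the KO columns 4 of 5 lay below all WT and below all HET columns, 2 of them at about 50 CPM, and KO replicate 2 lay inside the WT range. The fit gave -0.84 on the log2 scale (SE 0.37, adjusted p = 0.240) KO vs WT and -0.61 (SE 0.37, adjusted p = 0.430) KO vs HET, neither of which was called. Without KO replicate 2 the change KO vs WT was -1.22 (adjusted p = 0.141), and without KO replicate 1 or 3, the lowest columns, it was -0.65 (adjusted p = 0.359) or -0.63 (adjusted p = 0.284). It was -0.88 (adjusted p = 0.371) without KO replicate 4.

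Krt80, a type II keratin of differentiating epithelia that is found near desmosomes, was at 96.7, 109, 112, 180 and 141 CPM in WT. HET columns were at 97.5, 139, 89.3, 142 and 98.8 CPM, and KO columns at 110, 250, 74.2, 182 and 138 CPM. The highest and the lowest of all 15 columns were KO replicates 2 and 3, so KO enclosed the range of both other genotypes. On the log2 scale KO vs WT was 0.24 (SE 0.27, adjusted p = 0.640), 0.17 without KO replicate 4 and -0.02 without KO replicate 2.

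**Figure D3:**
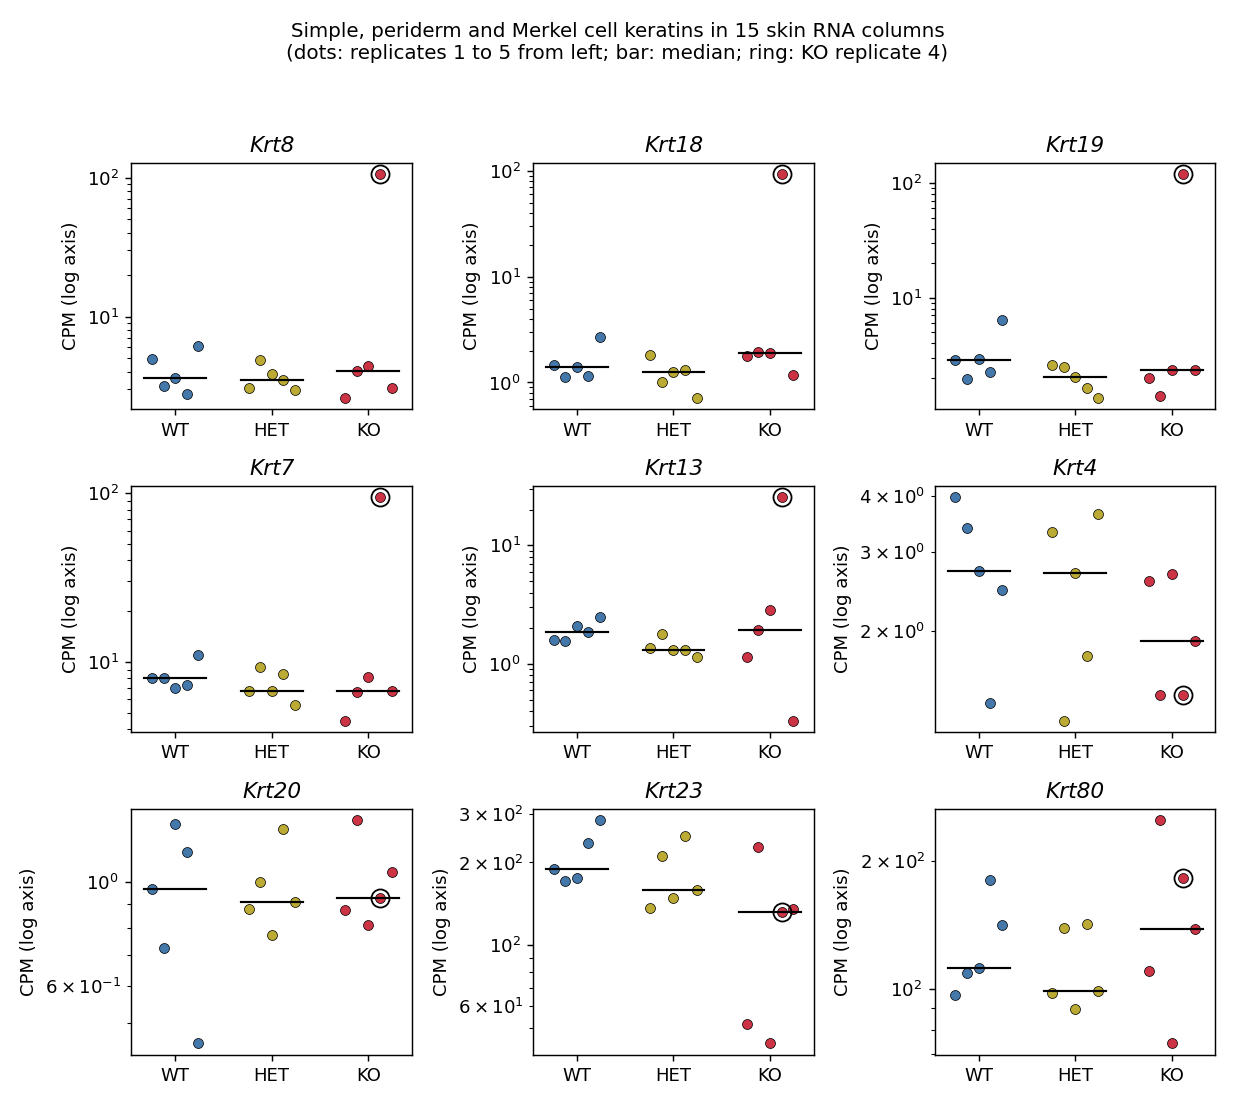
CPM of each keratin (log axis) in the 15 columns, 5 per genotype, with replicates 1 to 5 from left to right, a bar at the median and a ring around KO replicate 4. The ringed column is the highest in Krt8, Krt18, Krt19, Krt7 and Krt13, from 8.62 to 35.0 times the next one, and lies among the others in Krt4, Krt20, Krt23 and Krt80.

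HET and WT were compared to ask whether a single deleted copy was enough to shift these genes. All 9 adjusted p-values were 1.00, with log2 fold changes from -0.66 (Krt19, SE 1.22) to 0.04 (Krt20, SE 0.26). Because the 3 genotypes share an estimate of spread, KO replicate 4 widened these errors. With the WT and HET columns fitted alone, Krt19 was -0.66 (SE 0.31) and Krt13 -0.45 (SE 0.19), both with an adjusted p of 1.00. For Krt13, 4 of 5 HET columns were below all WT columns.

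The libraries carry 2 title formats, called format 1 (9 libraries) and format 2 (15 libraries), which the labels do not explain. KO replicate 4 and WT replicate 5 have a format 2 library alone. In format 1 alone, with 3 columns per genotype, the log2 fold changes KO vs WT were 0.67 for Krt18, 0.46 for Krt8, 0.11 for Krt13, -0.23 for Krt19 and -0.29 for Krt7, with adjusted p-values of 0.562 to 0.935. Format 2 alone, which holds KO replicate 4, gave 3.69 for Krt18, 2.45 for Krt8, 3.11 for Krt19, 1.61 for Krt7 and 1.85 for Krt13, with adjusted p-values of 0.143 to 0.267. Krt23 was -0.79 (adjusted p = 0.722) in format 1 and -0.87 (adjusted p = 0.210) in format 2. Where a number had both libraries, leaving out WT replicate 2, Krt13 was higher in format 1 in 8 of 8 pairs and Krt19 in 7 of 8, by a median of 0.46 and 0.80 on the log2 scale, whereas Krt23 differed by -0.05 to 0.12.

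KO replicate 4 was then set against the other 14 columns over all genes. It was the highest column for 5 of the 9 keratins, where it was the highest for 14.6% of all tested genes, and at least 5-fold above every other column (after adding 0.5 CPM) for the same 5, where 0.105% of genes were. These 5-fold genes numbered 18. Of the other 14 columns, only HET replicate 4 had any, with 1 gene. Besides Krt18, Krt19, Krt8, Krt7 and Krt13 the 18 were Ppbp, a platelet chemokine, the uroplakins Upk3bl and Upk3b, Msln (mesothelin), Serpina3n, Actg2, Dhrs9, Hsd11b1, Krt6a, Mal, Olfr78, Crispld2 and Cldn3. Ppbp was at 248 CPM in KO replicate 4 and at most 3.12 elsewhere, and Msln at 72.1 CPM and at most 4.48.

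**Figure D4:**
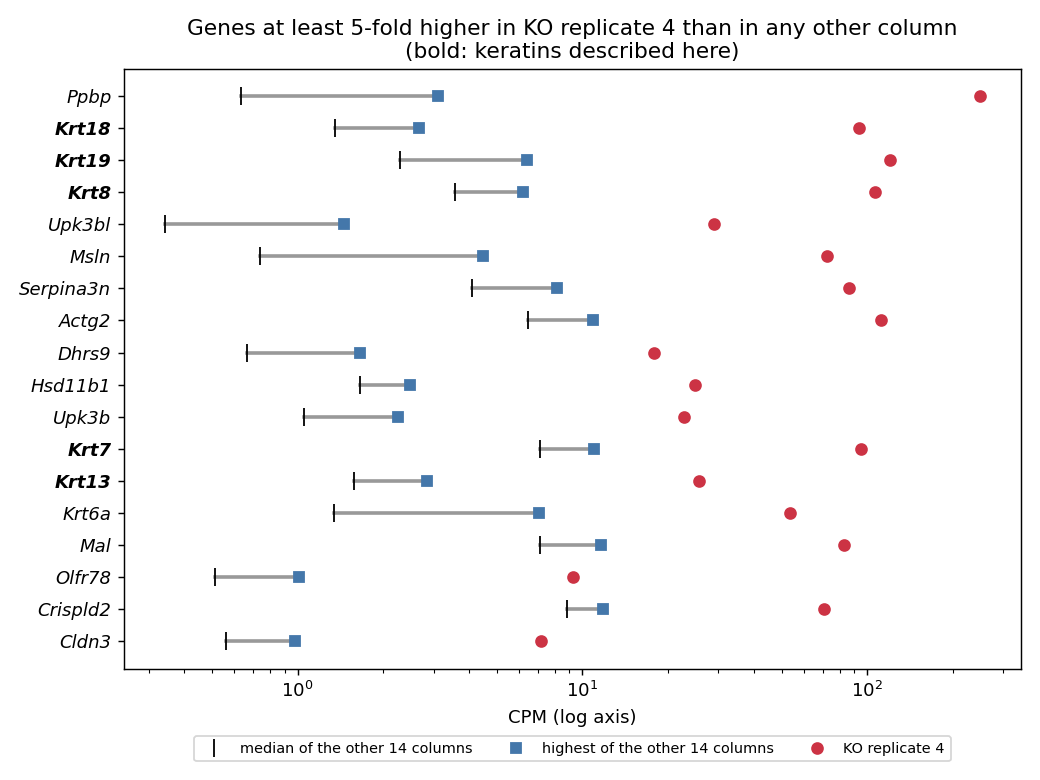
Levels in CPM (log axis) of the 18 genes that were at least 5-fold above every other column in KO replicate 4 (red), with the median (tick) and the highest (blue square) of the other 14 columns. The keratins described here, in bold, are 5 of the 18, and Ppbp, Krt18 and Krt19 have the widest gaps.

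Markers of other cell types moved in the same column, and their part in the keratin values was not tested. Of 5 mesothelium markers, 4 (Msln, Upk3b, Upk1b and Wt1) were highest in KO replicate 4 and at least 2-fold above all others, and the fifth, Lrrn4, held 7 counts there and was at 0 in several columns. Their summed level was 111 CPM in KO replicate 4, 4.24 to 9.82 CPM in WT, 3.12 to 5.51 in HET and 1.55 to 3.86 in the other KO columns. Of 8 neutrophil markers 4 were highest there (Csf3r, Cxcr2, S100a8 and S100a9), with a sum of 88.3 CPM against 9.22 to 40.7 elsewhere. Most of that sum was S100a8 (32.9 CPM) and S100a9 (43.7 CPM), which are not particular to neutrophils. For human skin, the paper lists S100A8 among keratinocyte genes raised by IL-17 and found S100A9 protein in patient epidermis. Ly6g, Ngp, Elane and Mpo were not highest there, and Mpo, at 0.257 CPM, ranked 12 of 15. All 6 fibroblast markers were lowest there, with a sum of 14700 CPM against 19900 to 36600 CPM.

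Markers of the skin cells that are known for simple keratins were mixed in that column. Of 8 Merkel cell markers, 1 (Snap25) was highest and 2 (Isl1 and Gfi1) lowest in KO replicate 4, and their sum was 22.7 CPM against 24.4 to 34 elsewhere. Of 7 periderm markers, 3 were highest there, Psca at 14 times, Krt6a at 7.58 times and Gabrp at 1.06 times the next column. Cldn6 was lowest there, at 0.206 CPM (4 counts), and Krt17 ranked 10 of 15. The sum of the 7, most of it Krt17 and Sfn, was 1440 CPM and lay within the range of WT and HET, 1060 to 1610. Basal keratinocyte, hair follicle and skeletal muscle markers were inside the range of the other columns in sum, at 5800, 354 and 12400 CPM. In RNA of whole skin, more cells of a type and more RNA per cell cannot be told apart. Over all KO and WT columns none of the tested Merkel, periderm, basal, hair follicle, muscle or fibroblast markers was called, with median log2 fold changes of -0.12, 0.34, 0.16, 0.14, -0.10 and -0.24. Of 6 tested neutrophil markers, with a median of 1.62, Cxcr2 was called (2.31, adjusted p = 0.0891), where 0.322% of all tested genes were. It was not called without KO replicate 4 (1.67, adjusted p = 0.180). Of 4 tested mesothelium markers, with a median of 1.38, 0 were called.

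Without KO replicate 4, all 4 mesothelium markers that were tested had negative log2 fold changes KO vs WT, with a median of -0.89 beside -0.01 over all genes. Upk3b was called, at -3.01 (SE 0.44, adjusted p = 0.0110), where 0.15% of all genes were. With all columns Upk3b was at 1.52 (SE 1.2, adjusted p = 0.49). It was at 1.46, 1.42, 0.948, 2.26 and 1.96 CPM in WT and at 0.0601, 0.258, 0.383 and 0.0952 CPM in KO replicates 1, 2, 3 and 5, which are 2 to 9 counts. All 4 of these columns were below all WT and HET columns, while the column left out, KO replicate 4, was at 22.7 CPM. The share of all genes with such a separation in these columns was not counted. In the same 4 columns Krt7 was below all WT columns in 3, Krt13 in 2, Krt8 and Krt19 in 1 each and Krt18 in 0. For Krt13, KO replicate 3 was above all WT columns.

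The ratio of Krt8 to Krt18 within a column does not depend on the library size. It was 3.40, 2.79, 2.59, 2.38 and 2.32 in WT, 1.68, 4.81, 3.09, 2.70 and 4.13 in HET and 1.47, 2.08, 2.29, 1.13 and 2.60 in KO. All but 1 of the KO columns were below all WT columns, and KO replicate 4, where both chains were most abundant, had the ratio nearest to 1. The mean log2 ratio was 0.87 ± 0.49 in KO, 1.42 ± 0.22 in WT and 1.62 ± 0.59 in HET (SD, n = 5 each). The difference KO vs WT was -0.54 (exact permutation test, two-sided p = 0.0397, adjusted over the 3 comparisons p = 0.107). KO vs HET was -0.75 (exact permutation p = 0.0714, adjusted p = 0.107) and HET vs WT 0.21 (exact permutation p = 0.484). At an adjusted p of 0.1, KO vs WT passed in format 2 alone (-0.72, exact permutation test, adjusted p = 0.0477) and without KO replicate 5 (-0.67, adjusted p = 0.0238). Without HET replicate 1 the KO and WT columns were the same, with -0.54 and an exact permutation p of 0.0397. Only the adjusted p of KO vs WT moved there, to 0.0595, with the p-values of KO vs HET and HET vs WT, which both passed. Without KO replicate 5 KO vs HET passed (exact permutation test, adjusted p = 0.0953). Without KO replicate 4 KO vs WT was -0.37 (exact permutation test, adjusted p = 0.203).

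Partner keratins were next compared as deviations of log2(CPM + 0.5) from the genotype means. Since KO replicate 4 stood apart, the relation was read in the other 14 columns. There Krt8 and Krt18 had a Pearson r of 0.53 and a Spearman rho of 0.51 (permutation test within genotypes, p = 0.0869 and 0.0853). For Krt8 and Krt19 r was 0.61 and rho 0.52 (permutation p = 0.0487 and 0.0778), and for Krt7 and Krt19 they were 0.52 and 0.42 (permutation p = 0.0603 and 0.152). Adjusted over 4 pairs, each of these Pearson p-values was 0.116. Without the 2 columns farthest from the median, r was 0.40, 0.26 and 0.42, and those columns included WT replicate 5 in each of these pairs. Krt4 and Krt13 gave r = -0.11 and rho = -0.36 (permutation p = 0.678 and 0.192).

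WT replicate 5 was the second column in the order for the simple keratins. After KO replicate 4 it had the highest Krt7, Krt8, Krt18 and Krt19, at 11, 6.19, 2.67 and 6.40 CPM, and the highest Msln, at 4.48 CPM. Msln was the only 1 of the 5 mesothelium markers for which this held, and Lrrn4 was at 0 CPM in WT replicate 5. Left out together with KO replicate 4, it took the log2 fold change KO vs WT of Krt19 from -0.69 to -0.31 and that of Krt7 from -0.35 to -0.23.

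The genes whose pattern over the 15 columns was most like each keratin were listed from 15059 genes that averaged at least 20 counts, with no test. For Krt23 they were Rab5a (r = 0.965), Anxa9 (0.964) and Btc (0.963), the last an ERBB ligand, and the correlations of the deviations from genotype means were 0.956, 0.974 and 0.946. For Krt80 they were C2cd2 (0.964), Cdsn (0.961), which encodes corneodesmosin, and Ssfa2 (0.956), with 0.984, 0.963 and 0.963 for the deviations. Krt4 was nearest to Adora3 (0.950), Chn2 (0.916) and Il5ra (0.915), with 0.960, 0.907 and 0.930 for the deviations, and Krt20 to Dact2 (0.784), Snx2 (0.765) and Slc44a5 (0.756), with 0.796, 0.763 and 0.796. The 5 keratins highest in KO replicate 4 were nearest to each other and to Upk3bl, Ppbp and Msln, with r from 0.920 to 0.984 and 0.917 to 0.985 for the deviations. Of their 15 nearest genes, 2 were also among the nearest without that column, Krt7 for Krt8 and Msln for Krt19 (0.881), against 7 of 12 for the other 4 keratins.

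Genes that act with keratins were followed as lists. Of 15 regulators of surface epithelium, 1 had an adjusted p of 0.1 or below KO vs WT, where 1.15% of all tested genes did. It was Grhl3, a grainyhead factor of the late epidermis, at 0.76 (SE 0.13, adjusted p = 0.0184), and it passed again without KO replicate 4 (adjusted p = 0.0477). Ovol1 (0.50, adjusted p = 0.102) and Elf3 (0.57, adjusted p = 0.449, and 0.29 without KO replicate 4) followed in size, and the list had a median of 0.19, or 0.23 without that column, beside -0.01 over all genes. Of 16 filament partners, 1 passed, Eppk1 (epiplakin, a plakin that binds keratin filaments), at 0.96 (SE 0.22, adjusted p = 0.0915), and without KO replicate 4 it was 0.98 and did not pass (adjusted p = 0.180). The desmosomal linker Dsp (0.58, adjusted p = 0.175) and periplakin Ppl (0.48, adjusted p = 0.249) did not pass, and the median of the list was 0.22. No gene of either list was past the fold limit.

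Of 12 other genes of simple epithelia 0 passed, where 1.15% of all tested genes did, with a median of 0.34, or 0.22 without KO replicate 4. Their largest changes were those of the claudins Cldn3 (1.52, adjusted p = 0.265) and Cldn7 (0.97, adjusted p = 0.292), both highest in KO replicate 4 and at -0.06 and -0.05 without it. Of 7 tested genes of mucosal squamous epithelium 0 passed, with Mal (1.34, adjusted p = 0.307), Crnn (1.04, adjusted p = 0.213) and Krt78 (0.62, adjusted p = 0.233) as the largest. Without KO replicate 4 these were -0.36, 0.96 and 0.64. Among 36 other keratins, with a median of 0.09, 1 was called, where 0.322% of all tested genes were. It was the wound keratin Krt16 (3.52, adjusted p = 0.0333, and 3.34 without KO replicate 4). Krt6a was at 3.13 (adjusted p = 0.131), or 1.17 without KO replicate 4, and Krt6b at 2.71 (adjusted p = 0.188). The change of Krt16 was thus of a similar size without the column that held most KO counts of the simple keratins.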

How the data were processed

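Poly(A) RNA of 24 skin libraries was sequenced with directional kits. The authors deposited raw read counts per gene, and the submitters' notes name STAR, HTSeq and the build hg19, which is human whereas the gene symbols are of mouse, so the alignment build is uncertain and no gene coordinates of the files are given. Library totals were 8.98 M to 21.0 M counts. Counts of libraries with the same number in their titles and the same genotype label were summed into 15 columns. Genes were kept by filterByExpr (17094 of 54087, holding 99.9% of counts) and tested with edgeR 4.0.16 (TMM, robust quasi-likelihood, the 3 genotypes in 1 fit) in R 4.3.3. DESeq2 1.42.0, limma-voom (limma 3.58.1), single title formats, columns left out in turn and other filters were alternatives. Single values were compared by exact permutation (scipy 1.17.1), correlations by 100000 permutations within genotypes. The exact test planned for genes under the filter was not needed. All 9 keratins are named. Of each list, genes with an adjusted p of 0.1 or below together with the fold limit are named, plus up to 3 of the largest changes. For each keratin the 3 genes most correlated with it are given. The keratins and lists were chosen with earlier results of these data known. Scripts were tested on simulated data.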

Additional observations from a re-analysis of the deposited data

Results flagged for a closer look

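Each group of 5 columns was examined for a column set far apart, by the gap of the highest or lowest column to its neighbour as a share of the range of the group, against a critical value of 0.71. Of 30 groups (the 9 keratins and the log2 Krt8 to Krt18 ratio in each genotype), 8 were flagged. Chance flags about 1 in 20, or 1.5 of 30, if groups are independent. All 8 flags fell on KO replicate 4 and WT replicate 5, for keratins that were high together there. The count can therefore not be set against that chance rate. KO replicate 4 was flagged for Krt7 (0.960), Krt8 (0.983), Krt13 (0.900), Krt18 (0.992) and Krt19 (0.992). WT replicate 5 was flagged for Krt7 (0.735), Krt18 (0.789) and Krt19 (0.776). Both are single libraries of format 2, as are 4 other columns that were not flagged. The mesothelium marker Msln was highest in the same columns, at 72.1 CPM in KO replicate 4 and 4.48 in WT replicate 5. The other markers of that list, Upk3b, Upk1b, Wt1 and Lrrn4, were not highest in WT replicate 5 among the columns besides KO replicate 4. The part of Msln in these values was not tested.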

How the results depend on the processing

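With the libraries of both formats summed, leaving out KO replicate 4 reversed the direction KO vs WT of Krt7, Krt8, Krt13 and Krt19, and the cause was not tested. Format 1 alone, which also lacks that column, kept Krt8 (0.46) and Krt13 (0.11) positive. Leaving out 1 or a pair of columns gave KO vs WT ranges of -0.36 to 1.82 for Krt7, -0.30 to 2.83 for Krt8, -0.36 to 2.02 for Krt13, -0.84 to 3.35 for Krt19, -0.06 to 0.27 for Krt20 and -0.02 to 0.41 for Krt80. KO vs HET ranged from -0.19 to 1.98 for Krt7, -0.05 to 3 for Krt8, -0.03 to 3.95 for Krt19 and -0.08 to 0.18 for Krt20, and HET vs WT from -0.30 to 0.04 for Krt4, -0.29 to 0.02 for Krt8 and -0.12 to 0.21 for Krt20. DESeq2 without KO replicate 4 gave -0.34 for Krt7, -0.21 for Krt8, -0.28 for Krt13 and -0.69 for Krt19 KO vs WT, and -0.18 for Krt7, -0.05 for Krt8 and -0.01 for Krt19 KO vs HET. Format 1 alone reversed Krt7 (-0.29) and Krt19 (-0.23) KO vs WT, Krt7 (-0.17) and Krt19 (-0.06) KO vs HET, and Krt8 (0.44), Krt18 (0.01) and Krt20 (-0.07) HET vs WT. Krt20 was -0.09 HET vs WT in format 2 alone, and Krt8 was 0.06 with a term for numbers present in both formats. The other alternatives kept the direction, but limma-voom gave smaller changes KO vs WT for Krt18 (1.25), Krt8 (0.70), Krt19 (0.49), Krt7 (0.32) and Krt13 (0.17). For Krt23 limma-voom gave a larger change, -1.08 (SE 0.36, adjusted p = 0.133), which was not called.

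The count of keratins called KO vs WT was 0 to 1 when a column was left out and 1 with the libraries of WT replicate 2 apart (Krt18), and KO vs HET it was 0 to 2. At an adjusted p of 0.1, the log2 Krt8 to Krt18 ratio KO vs WT passed in format 2 alone (-0.72) and without KO replicate 5 (-0.67). Without HET replicate 1 (-0.54) only its adjustment changed, since no KO or WT column was left out. The ratio KO vs WT ranged from -0.67 to -0.37 with a column left out. KO vs HET it ranged from -0.97 to -0.58, passing without HET replicate 1 and without KO replicate 5 (-0.88). HET vs WT was -0.07 in format 2 alone and passed without HET replicate 1 (0.43). Without KO replicate 4 the correlations of Krt8 with Krt18 (0.53), Krt8 with Krt19 (0.61) and Krt7 with Krt19 (0.52) did not pass, as they did over all 15 columns.

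No paired analysis was possible because the numbers in the titles are not shared between genotypes. Outside KO replicate 4, Krt20, Krt13 and Krt18 rest on few counts. Krt18 had 15 counts in HET replicate 5, which also limits the Krt8 to Krt18 ratio. The pair of libraries of number 35 differed in sex by Xist and the Y-linked genes, so they are not from 1 embryo. Which of them belongs to that number is not known.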
